A study of Mus musculus with 2 samples.

Results

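The cells described here were malignant cells of 4T1 mammary tumours with few or no UMIs of 2 division genes, called non-dividing for short, that carried at least 2 unique molecular identifiers (UMIs, single captured messages) of Car9. Car9 encodes carbonic anhydrase 9, a membrane enzyme that turns carbon dioxide and water into bicarbonate and protons. A cell had to have at least 200 detected genes, at most 20% mitochondrial UMIs and at least 10 UMIs of the keratins Krt8 and Krt18 per 10000. It also had to have no UMI of Ptprc (leukocytes) or Pecam1 (endothelium), fewer than 5 of the fibroblast genes Col3a1 and Dcn together, and fewer than 5 of the division genes Top2a and Mki67 together. The rule chose 1158 cells out of 21664 that passed the first 2 limits and 22863 deposited barcodes. Of the 6016 cells in the malignant gate, 4780 were non-dividing, and the Car9 cells were 588 in vehicle and 570 in β-elemene.

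4T1 is a mouse mammary carcinoma line used as a model of triple-negative breast cancer, and here it was grown in the mammary fat pad. Control mice received normal saline and treated mice received β-elemene, a plant sesquiterpene, into the peritoneum every day at 30 mg/kg for 18 days. Each group was 1 droplet library made with 3′ chemistry after enzymatic dissociation and lysis of red cells. How many mice gave cells to it, and their strain and age, are not given in the sources used here. A difference between the groups therefore had no replicate check and no p-value was computed, and every interval printed below is a 95% interval that covers counting error only.

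Oxygen-dependent prolyl hydroxylases normally mark the transcription factor HIF-1α for destruction. When oxygen is scarce the factor persists and switches on genes for glucose uptake, glycolysis, blood vessel growth, mitophagy and collagen modification. Car9 is among its best known targets and is widely used to stain poorly oxygenated zones of solid tumours, where the enzyme helps to export the acid that glycolysis makes.

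The whole libraries held 168750895 UMIs in vehicle and 157282740 in β-elemene. Car9 cells were deep in both, with medians of 22440 and 22153.5 UMIs and 4578 and 4580.5 genes per cell. Non-dividing malignant-gate cells with no Car9 UMI, called Car9-zero cells here, numbered 1402 and 1329 and were shallower, with medians of 15521 and 15188 UMIs. A search for doublets called 3 Car9 cells in each library. The libraries shared 37 barcodes, and 0 were Car9 cells in both.

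Car9 itself lies at chr4:43506966-43513729 of the GRCm38 build, on the plus strand. HIF binds DNA at sites with the core ACGTG or GCGTG. RefSeq promoter windows of that build, 250 bases before each start site, were searched for these letters on both strands. The following 30-base stretches show the match nearest the start site of Car9, of 4 genes that were higher in Car9 cells (described below) and of the marker Mt2, read 5′ to 3′ on the gene's strand with every match in the stretch in capitals.

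Car9 (chr4:43506996-43507025, plus strand): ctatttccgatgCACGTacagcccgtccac

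Bnip3 (chr7:138909524-138909553, minus strand): ggctccgccgccGCGTGcgtcccgccccgc

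Pgk1 (chrX:106186957-106186986, plus strand): aaatggaagtagCACGTctcactagtctcg

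Adm (chr7:110627591-110627620, plus strand): ggcaaatctgacCACGCccaccgtccgccc

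P4ha2 (chr11:54100843-54100872, plus strand): catACGTGcagcGCGTGgcggctcgggcct

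Mt2 (chr8:94172554-94172583, plus strand): ggtggggggaggGCGTGtgcaggctctgtc

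Car9 had 1 match in its window, Bnip3 5, Pgk1 2, Adm 2, P4ha2 3 and Mt2 1. The Car9 match began 18 bases before the RefSeq start, which lies downstream of the start of the GENCODE gene. Short motifs are common: 38.6% of the 32851 promoter windows searched held at least 1 match. Counted by gene, with a match in any window of the gene, the share was 41.5% of the 27025 genes with a window. Among the 9270 measured genes with a window it was 62.4%. Windows on chr18 were not searched. The share by gene was 85.7% in the glycolysis list (18 of 21 genes with a window). In the list of other hypoxia genes it was 95.2% (20 of 21, or 18 of 19 measured genes). Among genes that were higher in Car9 cells it was 69.9% (72 of 103), and among those that were lower 54.5% (109 of 200). Eno2 had a window and no match. A match describes letters and was not tested as a binding site.

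The Car9 cells were 23.5% of non-dividing malignant-gate cells in vehicle (exact binomial interval 21.9% to 25.3%) and 24.97% in β-elemene (23.2% to 26.8%), 1.42 percentage points apart. With each cell thinned to 5000 UMIs, and 296 and 364 shallower cells left out, 5.54% and 6.31% had at least 2 Car9 UMIs. With Car9 at 5 UMIs or more the shares were 5.89% and 8.10%. With 1 library per group these differences have no replicate check. Many members sat at the limit, with 235 of them in vehicle (39.97%) and 190 in β-elemene (33.3%) at exactly 2 UMIs. The median was 3 UMIs in both libraries and the highest cell had 19 and 22. Car9 cells held 40.04% and 42.9% of all Car9 UMIs of the kept cells.

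Free RNA in droplets can put Car9 UMIs into cells that do not make it. At least 2 Car9 UMIs were seen in 1.13% and 1.43% of gated T cells of the vehicle and β-elemene libraries (median depths 6753 and 6821 UMIs). The share was 0.430% and 0.713% in macrophages (12741 and 11209 UMIs). Fibroblasts, which were nearly as deep as the Car9 cells (19742 and 21366.5 UMIs), reached 2.54% and 2.70%. Endothelial cells had 0 of 183 and 0 of 180, which at 3 counts of the total allows a share of up to 1.64% and 1.67%. The malignant share lay above all of these at the deposited depth, and after thinning too, where fibroblasts had 1.25% and 1.05% and T cells 0.877% and 1.09%.

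Dividing malignant-gate cells, which the rule leaves out, also carried Car9. At least 2 UMIs were seen in 21.1% of 697 dividing cells in vehicle (interval 18.1% to 24.3%) and 30.6% of 539 in β-elemene (26.7% to 34.7%). After thinning the shares were 3.11% (1.93% to 4.71%) and 6.39% (4.47% to 8.82%).

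Epithelial genes outside the rule were present in the Car9 cells. Epcam, an epithelial adhesion molecule, stood at 552 CPM (counts scaled to 1000000 UMIs of a group of cells) in vehicle and 808 in β-elemene, and Krt7, a simple-epithelium keratin, at 287 and 307. Marker lists of other cell types were low: in neutrophil markers 2 of 588 and 2 of 570 Car9 cells reached 20 UMIs per 10000, and in macrophage markers 5 and 6. None of the Car9 cells reached that level for T cell, fibroblast, endothelial, pericyte or red cell markers, and the rule's limits on Ptprc, Pecam1, Col3a1 and Dcn by themselves keep many such cells out. Their median sum was at most 2.76 UMIs per 10000 for any of these lists, that of macrophage markers in β-elemene, and the highest single cell had 233 for neutrophil markers in vehicle. A UMI of the macrophage list was still found in 99.5% and 100% of Car9 cells, and of the neutrophil list in 84.9% and 91.9%. Cd4 was at 0 in the vehicle Car9 cells and Myh11, a pericyte gene, in the β-elemene Car9 cells. In Car9-zero cells more passed the same level, 45 and 57 for neutrophil markers and 76 and 81 for macrophage markers. The limits on Ptprc, Pecam1, Col3a1 and Dcn count raw UMIs, so they were stricter for the deeper Car9 cells. Their part in this difference was not tested.

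Of the 5 genes that named these cells, 1 defines the rule and 2 of the other 4 were at least 1.5-fold higher in Car9 cells in both libraries. Mt2, a metallothionein that binds zinc and copper, stood at 553 CPM in Car9 cells and 342 in Car9-zero cells of vehicle, and at 503 and 233 in β-elemene. These are ratios of 1.62 (1.57 to 1.67) and 2.16 (2.08 to 2.24). Has2, a hyaluronan synthase, read 237 against 143 in vehicle and 125 against 65.7 in β-elemene, ratios of 1.66 and 1.90. A UMI of Has2 was found in 78.2% and 64.0% of Car9 cells and in 45.8% and 31.2% of Car9-zero cells, or 45.6% and 34.3% against 32.1% and 20.0% after thinning to 5000 UMIs. Sox9, a progenitor transcription factor, was only slightly higher, with ratios of 1.07 (1.03 to 1.12) and 1.25 (1.19 to 1.32). Csf3, which encodes the granulocyte growth factor G-CSF, had a ratio of 0.890 (0.846 to 0.937) in vehicle and 1.56 (1.47 to 1.65) in β-elemene. Averaged per cell in place of summed, Csf3 was at 1.10 in vehicle. Csf3 and Sox9 therefore did not pass 1.5-fold in both libraries. In the sums Csf3 had opposite directions, and Sox9 leaned higher in both.

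Car9 cells were set against Car9-zero cells inside each library. Because the cells were picked by Car9 on these same counts, this is a description with no test. Among 11957 genes with at least 100 UMIs, 136 (1.14%) were at least 1.5-fold higher in Car9 cells in both libraries with both counting intervals off 1, and 280 (2.34%) were as much lower. The median log2 ratio over all of these genes was -0.02 in vehicle and -0.01 in β-elemene. Of the 136 higher genes, 30 belonged to the glycolysis list or the list of other hypoxia genes, and 96 belonged to none of the 33 lists examined.

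Most glycolysis genes were higher. Of 21 measured genes, 15 passed 1.5-fold in both libraries and 1, the lactate exporter Slc16a3, was lower (0.442 and 0.545, or 0.711 and 0.832 and short of the limit with cells of at least 10000 UMIs), with median log2 ratios of 0.94 and 0.96. Summed over the list, Car9 cells had medians of 70.9 and 74.6 UMIs per 10000, against 36.9 and 38.6 in Car9-zero cells. Pgk1, which makes the first ATP of the pathway, stood at 589.9 CPM against 209 in vehicle and 648 against 218 in β-elemene. Those levels gave ratios of 2.83 (2.73 to 2.93) and 2.97 (2.87 to 3.08). Aldoa (aldolase), Ldha (lactate dehydrogenase) and the glucose transporter Slc2a1 had ratios of 2.27 and 2.47, 2.11 and 2.07, and 1.80 and 2.34. Pdk1, a kinase that keeps pyruvate out of mitochondria, was at 2.26 and 2.06. The largest ratios belonged to Eno2, the neuronal enolase, at 4.07 (2.69 to 6.28) and 7.50 (4.95 to 11.8), on levels of only 6.01 and 9.94 CPM. Hk2, the hexokinase that starts the pathway, did not reach the limit, at 1.25 and 1.46.

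Other hypoxia genes showed the same pattern, with 15 of 28 higher, 2 lower and median log2 ratios of 0.91 and 0.99. Bnip3, a mitophagy receptor, had nearly the same levels in both libraries, at 157 against 39.5 CPM in vehicle and 157 against 39.2 in β-elemene. Its ratios were 3.98 (3.68 to 4.31) and 4.02 (3.70 to 4.36). Its relative Bnip3l was at 1.85 and 1.99. Higd1a, a small mitochondrial protein, stood at 3.01 and 3.88, Fam162a at 2.89 and 2.77, and the mitochondrial adenylate kinase Ak4 at 2.77 and 3.80. Ankrd37 had ratios of 3.45 and 4.51, and Ero1l, which forms disulfide bonds in the endoplasmic reticulum, 3.28 and 4.29. Ndrg1, a classical hypoxia marker, was at 2.20 and 2.98, and the oxygen sensor Egln1 at 2.41 and 2.80. The factor's own message was nearly level, Hif1a having ratios of 1.10 and 1.10. Stc2 and Rora were the 2 lower genes, and both stayed low with cells of at least 10000 UMIs only (Stc2 0.306 and 0.122, Rora 0.386 and 0.146).

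**Figure D1:**
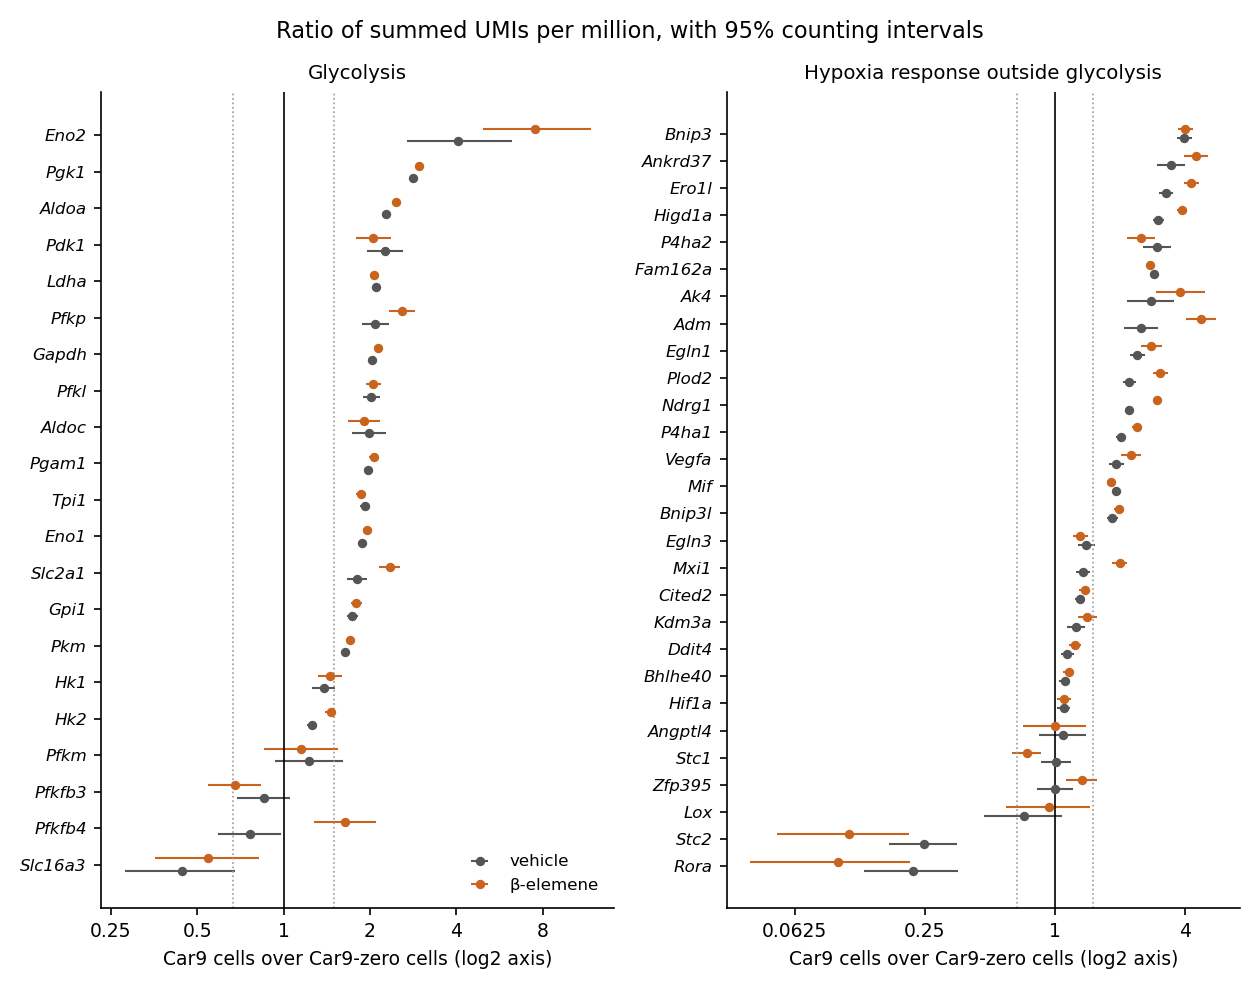
Ratio of summed CPM in Car9 cells over Car9-zero cells (x axis, log2 scale) for each measured gene of the glycolysis list (left) and of the list of other hypoxia genes (right), in vehicle (grey) and β-elemene (orange). Bars are 95% counting intervals, the solid line marks 1 and the dotted lines 1.5-fold. Of the 21 glycolysis genes 15 lie beyond 1.5-fold on the right in both libraries, as do 15 of the 28 others.

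Collagen-modifying enzymes were among the clearest members. Collagen prolyl hydroxylases P4ha1 and P4ha2 had ratios of 2.03 and 2.39, and 2.97 and 2.50. Lysyl hydroxylases Plod1 and Plod2 stood at 2.14 and 3.15, and 2.21 and 3.07. These were the only 4 of 18 matrix and crosslinking genes past the limit, and the matrix proteins Fn1 and Spp1 were nearly level (1.08 and 1.12, 1.03 and 1.19). The list leaned higher, with 16 of 18 genes above 1 in each library and median log2 ratios of 0.49 and 0.43. Secreted vessel factors that passed were 3 of 15 angiogenesis genes: Vegfa (1.93 and 2.25), placental growth factor Pgf (2.41 and 2.88) and adrenomedullin Adm (2.50 and 4.74). The vessel peptide apelin, Apln, which was outside that list, had ratios of 2.45 and 2.77. In acid handling, carbonic anhydrase Car12 stood at 2.03 and 2.90 and basigin (Bsg), the chaperone of lactate transporters, at 1.73 and 1.74. Mt1 was the other metallothionein past the limit, at 1.90 and 2.47, and none of the remaining 10 zinc genes passed. Ugdh, which makes a precursor of hyaluronan, was at 1.92 and 2.15 beside Has2, and the cytokine Il11 at 1.75 and 2.79.

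Genes outside every list also ranked high. Espn, an actin bundler, had ratios of 3.21 and 3.89, and Pgm1, which feeds glycogen sugar into glycolysis, 2.42 and 2.80. Prelid2 stood at 2.61 and 2.63, and Unc13a at 2.43 and 3.84.

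Some chemokine genes stood lower in the sums. Among 11 measured chemokines 4 were lower and 0 higher, with median log2 ratios of -0.70 and -0.33. With cells of at least 10000 UMIs 3 of 11 were lower (medians -0.58 and -0.22), and with thinned cells 1 of 8 (-0.40 and -0.03). The highest single Car9-zero cell had 975 chemokine UMIs per 10000 in vehicle and 826 in β-elemene, against 76.6 and 107 in Car9 cells. The part of such cells, and of Car9-zero cells high in neutrophil or macrophage markers, in the sums was not tested. Cxcl10, which draws T cells, was at 29.7 against 65.3 CPM in vehicle and 32.3 against 58.1 in β-elemene. Cxcl9, its close relative, had ratios of 0.114 and 0.276, which were 0.109 and 0.269 among cells of at least 10000 UMIs. In the interferon list 1 of 19 genes was above 1 in vehicle (median log2 ratio -0.51) and 4 in β-elemene (-0.15), but only Ifit2 passed the lower limit in both, and with cells of at least 10000 UMIs 0 of 19 did. The median sum per cell did not keep 1 direction: for chemokines it was 2.52 UMIs per 10000 in Car9 cells against 3.22 in Car9-zero cells of vehicle and 3.60 against 2.69 in β-elemene, and for interferon genes 4.82 against 5.52 and 7.31 against 7.17. Hspb1, a small heat shock protein, was at 0.321 and 0.315.

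Several of the lower genes that the naming rule chose act in cell division, which the rule for the cells also limits. That limit counts raw UMIs, and Car9 cells were deeper than Car9-zero cells (medians of 22440 and 22153.5 against 15521 and 15188 UMIs). It thus allowed Car9 cells fewer Top2a and Mki67 UMIs for their depth, and its part in these ratios was not tested. Birc5 and Cenpf, which act in mitosis, had ratios of 0.466 and 0.521, and 0.451 and 0.476. Pclaf, which acts in DNA replication, stood at 0.423 and 0.439, and the linker histone Hist1h1b at 0.379 and 0.291. G1 and S phase genes had median log2 ratios of -0.31 and -0.59 (0 higher and 1 lower of 18). With cells of at least 10000 UMIs these medians were -0.30 and -0.50. Slc7a11, the cystine importer, was at 0.436 and 0.425, and Cth, which makes cysteine, at 0.461 and 0.472. The kinase Hunk stood at 0.306 and 0.393.

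Part of the lower list moved with depth and with neutrophil markers. S100a9, a calcium-binding protein of neutrophils, read 41.9 against 141 CPM in vehicle and 59.9 against 188 in β-elemene, and 6 of 8 neutrophil markers were lower. With cells of at least 10000 UMIs in both groups the ratios of S100a9 were 0.621 and 0.841 and none of 6 measured neutrophil markers passed. Under that limit 171 genes were lower and 128 higher, and 119 of the latter were among the 136. Cd14, a monocyte and neutrophil receptor, was at 0.498 and 0.495 with all cells and 0.637 and 0.579 with deep cells.

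Few epithelial or mesenchymal genes passed. Of 23 epithelial junction genes 0 were higher and 2 lower, Crb3 and Ap1m2, and 3 in vehicle and 2 in β-elemene had a ratio above 1 (median log2 ratio -0.30 in both libraries), and of 15 mesenchymal genes 0 passed in either direction (0.19 and 0.24). The tight junction gene Cldn4 had ratios of 0.836 and 0.838, and vimentin (Vim) 1.38 and 1.498. Of 18 unfolded protein response genes 0 passed the limit, and 13 in each library had a ratio above 1 (median log2 ratios 0.14 and 0.12). None of 25 nuclear respiratory chain genes passed, but only 2 of them in vehicle and 0 in β-elemene had a ratio above 1, with medians of -0.15 and -0.14 on the log2 scale. Ndufa4, a cytochrome oxidase subunit, had the lowest pair beside Cycs (cytochrome c), at 0.748 and 0.740 against 0.777 and 0.736.

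Splitting the cells by Car9 count showed levels of Bnip3 and of the glycolysis sum that climbed from bin to bin, below the limit of the rule as well as above it. In vehicle, Bnip3 stood at 39.5 CPM in cells with 0 Car9 UMIs and 63.4 at 1, the cells just outside the rule. It was at 110.6 at 2 (just inside), 137 at 3 to 4, 239 at 5 to 9 and 278 at 10 or more. In β-elemene the same series read 39.2, 64.0, 87.9, 132, 216 and 301. The median glycolysis sum went from 36.9 UMIs per 10000 at 0 through 44.9 at 1 and 57.5 at 2 to 138 at 10 or more in vehicle, and from 38.6 through 48.4 and 64.0 to 146 in β-elemene. Cells at 1 UMI thus lay between both sides. Not every hypoxia gene did so: Egln3 in β-elemene stood at 57.4 CPM at 0, 54.4 at 1 and 55.2 at 2, and Vegfa at 39.4 at 1 and 35.5 at 2. Mt2 climbed from 342 to 713 CPM at 5 to 9 UMIs in vehicle and stood at 668 at 10 or more, and from 233 to 797 in β-elemene. Csf3 did not climb in this way. In vehicle it fell from 185 at 0 through 181 at 2 and 131 at 5 to 9 to 107 at 10 or more. In β-elemene Csf3 had no order, at 103, 197, 126 and 179.7 in the same bins. Cldn4 went from 202 at 0 to 115 at 10 or more in vehicle and from 237 to 147 in β-elemene. Depth followed Car9 too, with median UMIs per cell of 15521 at 0 and 27334 at 10 or more in vehicle and 15188 and 32833 in β-elemene, and its part in these levels was not tested. Only 19 and 38 cells had 10 or more Car9 UMIs.

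**Figure D2:**
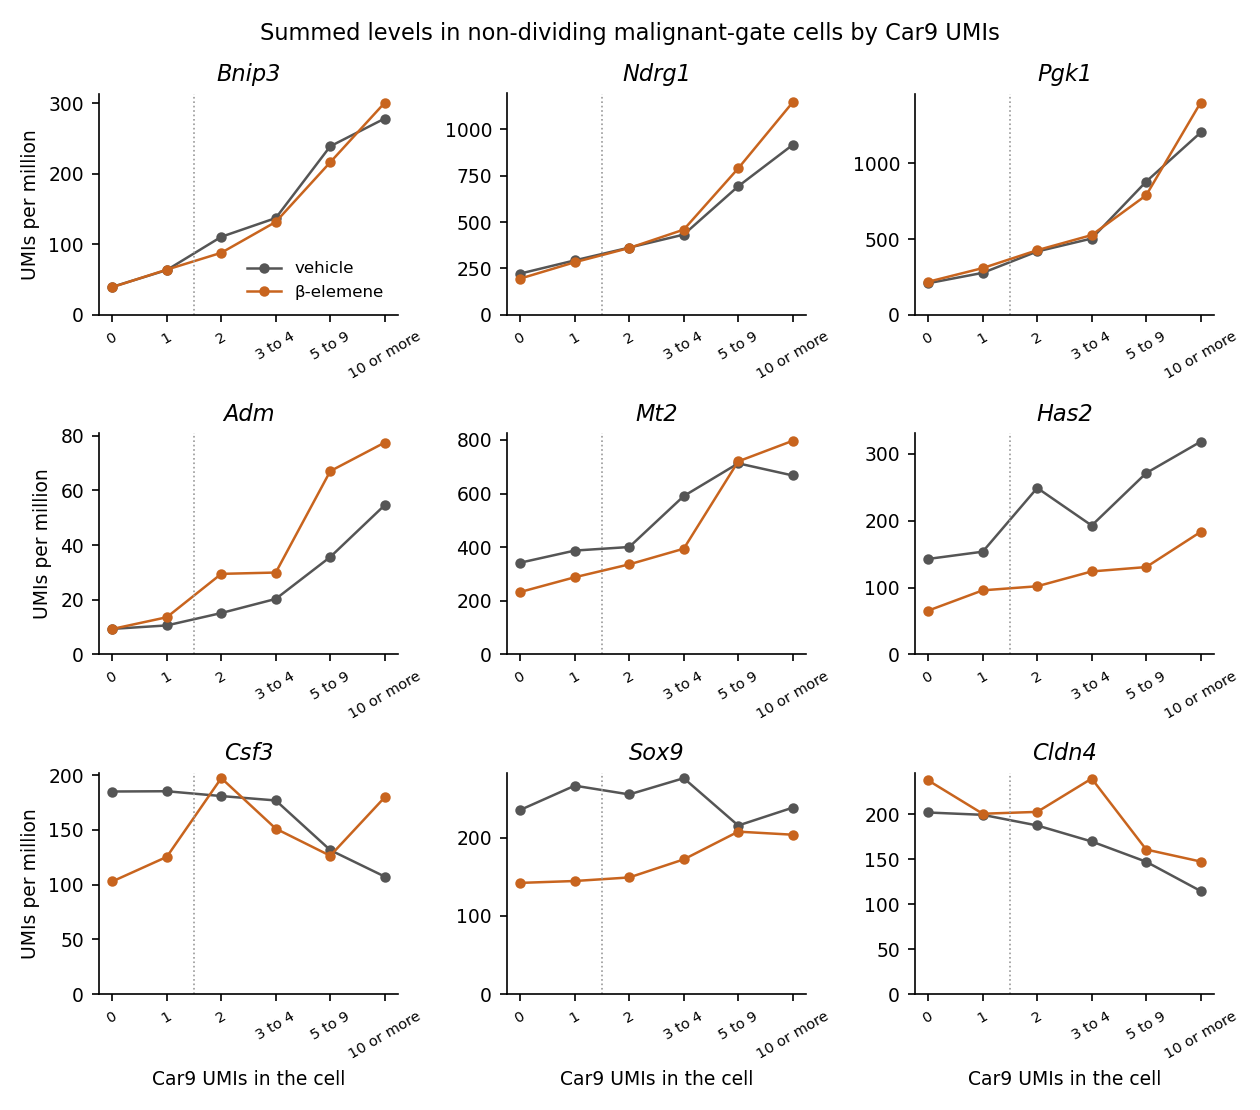
Summed UMIs as CPM (y axes, from 0) of 9 genes in non-dividing malignant-gate cells grouped by the Car9 UMIs of the cell (x axis), in vehicle (grey) and β-elemene (orange). The dotted line marks the limit of 2 UMIs. Bnip3, Ndrg1, Pgk1 and Adm climb from left to right in both libraries, and Has2 is lower in β-elemene in every bin. Csf3 falls at the higher Car9 counts in vehicle and has no order in β-elemene.

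Clustered among themselves, the 1158 Car9 cells fell into 5 groups, described here by number and not tested, since the clustering used the same counts. Group 2 (239 cells) had the strongest hypoxia pattern, with a median glycolysis sum of 116.8 UMIs per 10000 and Bnip3 at 291.5 CPM. It also had the most Has2 (355.5 CPM), 4373 of Vim and only 84.5 of Cldn4, and its leading genes included Mgarp, Ero1l, Apln and Espn. Group 3 (223 cells) had the most Cldn4 and Lcn2, with 346 of Cldn4 and 1445 of Lcn2 (CPM) and 52.5 of Has2. Group 1 (380 cells) was led by Sipa1l2, Iigp1, Nfatc2, Serpine2 and Nfkb1. Group 4 (212 cells) was led by Cd46 and Slc25a40 and had little Csf3 (30.3 CPM). Group 5 (104 cells) was led by Cdc20, Birc5 and Pttg1, genes of mitosis, so the limit on Top2a and Mki67 did not remove every cell with a mitotic pattern. Glycolysis was highest in groups 2 and 5 (medians 116.8 and 104.8), and Csf3 was highest in group 1 (214 CPM).

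The comparison of β-elemene with vehicle inside the Car9 cells describes how these cells differed between treated and untreated tumours. The rule did not use the group of a cell, but it set the same Car9 limit in both libraries. The same ratio in Car9-zero cells is given beside each value. Both ratios come from the same pair of libraries, and the difference between them was not tested. Of 10167 genes with at least 100 UMIs, 119 (1.17%) were at least 1.5-fold higher in β-elemene with the interval off 1 and 191 (1.88%) lower. In Car9-zero cells, which gave larger sums and more measured genes, 172 of 11957 (1.44%) were higher and 444 (3.71%) lower. Among the same 10167 genes, 72 were higher and 229 lower in Car9-zero cells. With cells thinned to 5000 UMIs only 6053 genes had at least 100 UMIs, and the rest could not be called. Of these 6053, 88 were higher in β-elemene within Car9 cells and 126 lower, and 25 and 43 were among the 119 and 191.

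The hypoxia pattern itself was of like size in the Car9 cells of both libraries. The same Car9 limit chose those cells in both, and Bnip3 and the glycolysis sum climbed with the Car9 count. Such likeness is thus partly built in by the choice and does not show how hypoxia in the tumours compared. Of 20 glycolysis genes 1 was higher in β-elemene and 0 lower (median log2 ratio 0.14, and 0.07 in Car9-zero cells), and of 25 other hypoxia genes 2 were higher and 1 lower (0.16 and -0.03). Bnip3 had a ratio of 1.00 (0.943 to 1.06) and Pgk1 1.10. Adm, a vasodilator peptide, was an exception, at 23.4 CPM in vehicle and 44.2 in β-elemene, a ratio of 1.89 (1.65 to 2.16) beside 0.996 (0.814 to 1.22) in Car9-zero cells. Ankrd37 stood at 1.68 (1.52 to 1.86) beside 1.29, and Eno2 at 1.65 beside 0.897. On the other side Vegfa was at 0.722 beside 0.617, Egln1 at 0.678 beside 0.584 and Hk2 at 0.684 beside 0.588, all short of the limit in Car9 cells. Angptl4, a lipoprotein lipase inhibitor, was the lower gene, at 0.563 beside 0.610.

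Hyaluronan genes leaned lower. Has2 stood at 237 CPM in vehicle and 125 in β-elemene, a ratio of 0.526 (0.497 to 0.557) beside 0.459 (0.431 to 0.490) in Car9-zero cells. Has1, another synthase, was at 0.422 beside 0.450, and Tnfaip6, which links proteins to hyaluronan, at 0.473 beside 0.945. The hyaluronan receptor Cd44 was at 0.708 beside 0.707. Of 8 measured hyaluronan genes 3 were lower and 0 higher, with a median log2 ratio of -0.54. Of the other naming genes, Sox9 stood at 0.706 beside 0.604, Mt2 at 0.909 beside 0.681 and Csf3 at 0.974 beside 0.556. The Car9 cells thus held like amounts of Csf3 in both libraries (165 and 160.3 CPM), while Car9-zero cells had 185 and 103. Has2 was lower in β-elemene in every bin of Car9 count, from 143 against 65.7 CPM at 0 UMIs to 318 against 183 at 10 or more. Of the groups found by clustering, group 2, with the most Has2, held 24.8% of Car9 cells in vehicle and 16.3% in β-elemene, and group 3, with the least, 16.7% and 21.9%. Has2 and Lcn2 were among the counts clustered, and the part of these shares in their ratios was not tested.

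Antigen presentation and interferon genes leaned higher. For MHC class I presentation 16 of 17 genes were above 1, 4 of them past the limit and 0 lower, with a median log2 ratio of 0.44 beside 0.25 in Car9-zero cells. The nonclassical class I gene H2-T23 had a ratio of 1.86 (1.72 to 2.01), the immunoproteasome subunit Psmb9 1.59 and the peptide transporter Tap2 1.51. H2-D1 and H2-K1, the classical heavy chains, were at 1.40 and 1.28, and reads of such similar genes may be split among copies. H2-DMb1, which loads class II molecules, stood at 2.08 beside 1.33. In the interferon list 15 of 16 genes were above 1 and 3 passed, with a median of 0.37 beside 0.10. Those 3 were Ifit1 (3.17 beside 1.01), the guanylate-binding protein Gbp3 (1.67 beside 0.962) and the antiviral tetherin Bst2 (1.58 beside 1.29). Ifit1 was seen in only 26 and 40 Car9 cells, and with Car9 at 5 UMIs or more its ratio was 0.496. Gbp5, of the same family as Gbp3, was at 2.10 beside 0.842.

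Cholesterol synthesis also leaned higher, with 19 of 21 genes above 1, 4 past the limit and 0 lower (median 0.36 beside 0.17). Msmo1, Idi1 and Fdps, enzymes of the pathway, had ratios of 1.72, 1.66 and 1.501. Myc-linked growth genes leaned lower, with 3 of 16 above 1, 0 past the limit and a median of -0.20 beside -0.03.

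**Figure D3:**
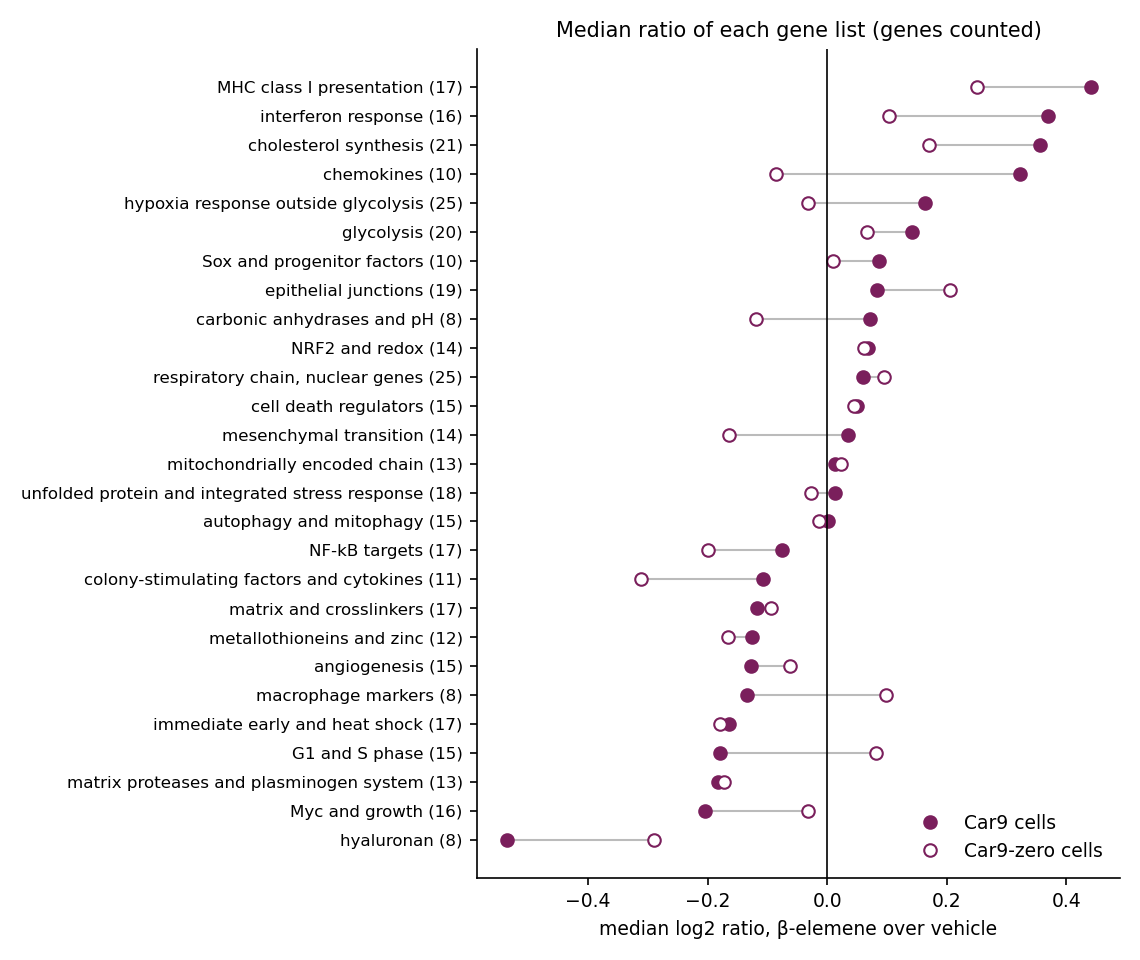
Median log2 ratio of β-elemene over vehicle (x axis) for each gene list with at least 8 measured genes, in Car9 cells (filled circles) and Car9-zero cells (open circles). The number of genes counted in Car9 cells is in brackets. MHC class I presentation lies farthest right at 0.44 and hyaluronan farthest left at -0.54 in Car9 cells.

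Lcn2, the iron-binding protein lipocalin 2, stood at 401 CPM in vehicle and 911 in β-elemene, a ratio of 2.27 (2.20 to 2.34) beside 1.58 in Car9-zero cells. The largest single cell held 4.73% and 7.17% of those UMIs. Group 3, with the most Lcn2, held 16.7% and 21.9% of the Car9 cells. Of 5 measured neutrophil markers 1 was higher in β-elemene and 0 lower (median log2 ratio 0.38), with S100a9 at 1.43 and S100a8 at 0.817, and their part in the ratio of Lcn2 was not tested. Mgst1, a glutathione transferase, stood at 2.09 beside 1.66, and Hunk at 2.28 beside 1.77. The inflammatory adaptor Tifa was at 1.98 beside 0.845, the chemokine receptor-like gene Ccrl2 at 2.02 beside 1.26, and Cep78, a centrosome gene, at 2.23 beside 0.840. A single cell held 19.5% of the Ccrl2 UMIs of the β-elemene Car9 cells. Among the 12 highest genes by the naming rule, 4 had a ratio near or below 1 in Car9-zero cells, namely Ifit1, Cep78, Gbp5 and Tifa. Each of those 4 had at most 8.65 CPM, on 39, 33, 34 and 45 UMIs in vehicle Car9 cells. The 12 genes were ranked by their ratio in Car9 cells, so a smaller ratio in Car9-zero cells is partly built in by the choice.

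The lowest genes by the same rule were Pde5a, a cyclic GMP phosphodiesterase, at 0.304 (0.191 to 0.470) beside 0.330, and Tktl1, a transketolase-like gene, at 0.352 beside 0.504. The ligand Wnt4 was at 0.359 beside 0.660 and the protease Mmp10 at 0.376 beside 0.611. Mmp10 was also higher in Car9 cells than in Car9-zero cells, at 2.92 and 1.80. Serpine2, a protease inhibitor, had a ratio of 0.429 beside 0.458, and the casein kinase subunit Csnk2a2 0.466 beside 0.452. Plet1os, antisense to Plet1, was at 0.369 in both kinds of cell. Pik3r3, a regulatory subunit of phosphoinositide 3-kinase, stood at 0.464 beside 0.890. The cytokines Il11 and Il10 were at 0.636 beside 0.399 and 0.526 beside 0.379, and Nfkb1 at 0.665 beside 0.519.

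**Figure D4:**
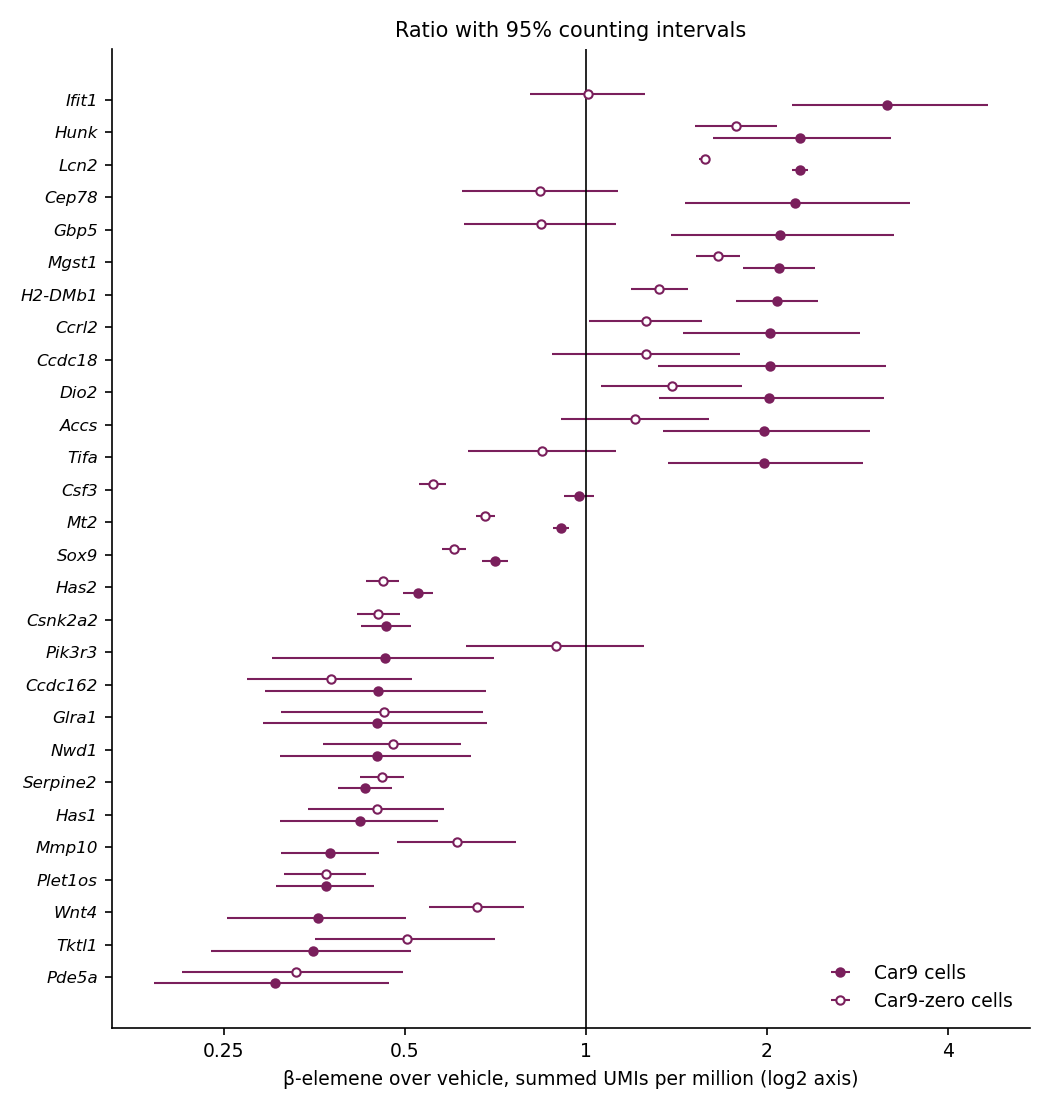
Ratio of summed CPM, β-elemene over vehicle (x axis, log2 scale), for the 12 highest and 12 lowest genes chosen by the naming rule and for Csf3, Mt2, Sox9 and Has2. Filled circles are Car9 cells, open circles Car9-zero cells and bars 95% counting intervals. Pde5a, Serpine2 and Csnk2a2 have similar ratios in both kinds of cell, while Ifit1, Cep78, Gbp5 and Tifa lie above 1 in Car9 cells and near or below 1 in Car9-zero cells. The 12 highest and 12 lowest genes were chosen by their ratio in Car9 cells, so less extreme ratios in Car9-zero cells are partly built in.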

How the data were processed

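Single-cell RNA was measured in 2 libraries, 1 per group, by 3′ droplet chemistry, version 3. The deposited values are counts, that is unnormalised UMI counts per gene and barcode for 32285 features, written by Cell Ranger 7.1.0 per the file headers. Reads were aligned to mm10 with Cell Ranger and STAR, per the submitters' processing notes. The annotation release, intron counting and cell calling are not given in the sources used here.

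The members and the gene lists were chosen with earlier results of these data known. The limits of 5 UMIs were read as raw UMIs. Counts were summed over cells per library and scaled to 1000000 (CPM), and ratios were given with exact Poisson (conditional binomial) intervals. Shares had exact Clopper-Pearson intervals. A gene passed at 1.5-fold with its interval off 1, and for Car9 against Car9-zero cells this was required in both libraries. Genes needed at least 100 UMIs. No test was made across cells, since cells of 1 library are not replicates.

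Named genes were the 15 highest and 10 lowest (Car9 against Car9-zero cells, UMI in at least 10% of cells of the higher group) and the 12 highest and 12 lowest (β-elemene against vehicle, UMI in at least 5% of cells of the higher library, no cell with over 20% of a sum), with mitochondrial, ribosomal, receptor segment and unnamed genes left out, and the abundant or extreme members of the lists. A few genes that the rule chose are not reported here. Doublets were called per library against simulated doublets and kept, except in an alternative: 335 (3.10%) and 291 (2.68%) of kept cells were called. Car9 cells were clustered on 1500 variable genes, 20 components and 15 neighbours (Leiden, resolution 0.5). Positions came from GENCODE vM21 and promoter windows from RefSeq (GRCm38.p6); Csf3, Has2, Sox9, Ndrg1 and Ero1l had no entry. The ratio calculation was tested on simulated data. Software was Python 3.11.15, numpy 2.4.6, scipy 1.17.1, pandas 2.3.3, scanpy 1.11.5, leidenalg 0.10.2 and matplotlib 3.10.9. Alternatives covered cell definitions, depth, scaling, filters and single cells.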

Additional observations from a re-analysis of the deposited data

Results flagged for a closer look

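For 52 of 11957 measured genes (0.435%) the ratio of Car9 cells to Car9-zero cells lay on opposite sides of 1 in the libraries, with both counting intervals off 1. Among 439 measured genes of the lists there were 12, and 4 of these had ratios at least 1.5-fold apart. In each case the difference between the libraries was not tested.

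Csf3 (G-CSF) had a ratio of 0.890 in vehicle and 1.56 in β-elemene, and 318 and 295 Car9 cells carried it. Pfkfb4, a regulator of glycolytic flux, stood at 0.764 and 1.64, on levels of 6.64 and 9.73 CPM in Car9 cells. The chemokine Ccl5 was at 0.277 and 4.10, but 1 cell held 44.2% of its UMIs in the β-elemene Car9 cells, and with the top cell of each sum left out the ratios of Ccl5 were 0.302 and 2.49. Rsad2, an antiviral interferon target, was at 0.289 and 1.63, with 44.3% of its UMIs in 1 β-elemene Car9 cell, and without the top cells Rsad2 stood at 0.376 and 1.07.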

How the results depend on the processing

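No paired analysis was possible because each group was 1 library and the labels give no replicate numbers. The share of Car9 cells kept its small difference, higher in β-elemene, except with Car9 at 1 UMI or more (43.9% in vehicle and 41.8% in β-elemene, -2.07 points). It was 5.89% and 8.10% with Car9 at 5 UMIs or more, and 5.26% and 6.36% with cells thinned to 5000 UMIs before the rule. For Car9 against Car9-zero cells, genes higher numbered 267 with Car9 at 5 or more and 51 with 10 CPM added. Genes lower numbered 99 with thinned cells, where 8966 genes had at least 100 UMIs. They numbered 171 with cells of at least 10000 UMIs and 34 with 10 CPM added. With keratins at 20 per 10000, a limit chosen after seeing the data, they numbered 171. For β-elemene against vehicle, genes higher numbered 19 with 10 CPM added and 213 with at least 20 UMIs per gene, and genes lower 126 with thinned cells, 30 with 10 CPM added and 474 with at least 20 UMIs. With thinned cells only 6053 genes had at least 100 UMIs for this comparison. Of the 88 higher genes 25, and of the 126 lower genes 43, were among those of all counts. Directions that turned were Csf3 in vehicle (1.10) and the MHC class I median in vehicle (0.046) with per-cell means, and the hyaluronan median in β-elemene (-0.088) with thinned cells. The macrophage marker median turned between libraries with per-cell means (0.079), thinned cells (0.169) and Car9 at 5 or more (0.230), and in vehicle with deep cells (0.165). With Car9 at 5 or more the cytokine median between libraries (0.145), Ifit1 (0.496), Mt2 between libraries (1.05) and Sox9 in vehicle (0.929) turned too. The cause of these shifts was not tested. Of 1730 other values, 1364 kept their direction and moved little and 355 moved. Depth limits genes of a few CPM, where a single cell can set the ratio.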

Other observations

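These genes were chosen after their values were seen. The mitochondrially encoded mt-Nd3 stood at 722 CPM in vehicle Car9 cells and 371 in β-elemene, a ratio of 0.514 (0.497 to 0.531), and at 0.527 in Car9-zero cells. It was the only 1 of 13 such genes past 1.5-fold in Car9 cells, beside mt-Nd4l at 0.731 and mt-Co1 at 1.09, and the median log2 ratio of the 13 was 0.01. Fth1 and Ftl1, the chains of the iron store ferritin, were at 1.30 and 1.12 in Car9 cells beside 1.12 and 1.09 in Car9-zero cells. The cytokine Tslp was at 1.43 beside 1.26, and the chaperone Hsph1 at 0.581 beside 0.642. Rab25, an epithelial trafficking GTPase, had a ratio of 1.97 beside 1.92, although within each library it was lower in Car9 cells (0.655 and 0.672). Hmox1, which breaks down haem, stood at 1.14 in vehicle and 2.11 in β-elemene for Car9 over Car9-zero cells, and 1 vehicle Car9-zero cell held 22.6% of its UMIs there.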
